A study of Caenorhabditis elegans with 6 samples.

Results

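The sites described here are the NHR-25::GFP binding peaks in the centre of chromosome V of Caenorhabditis elegans. They were chosen by position alone, as the peaks of the combined list on chromosome V whose midpoint lies from 5.90 to 16.55 Mb on WormBase release WS220. The rule found 709 of the 6029 peaks of the combined list, and the same stretch held 703, 720 and 704 peaks in the top lists of ChIP replicates 1, 2 and 3. A top list holds the first 6029 peaks of a replicate by the authors' own peak number, the size of the combined list. Another 282 peaks lie on the arms of V, which are the reference for most comparisons here.

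All animals were hermaphrodite L2 larvae of strain OP33, with the unc119(ed3) allele and the transgene wgIs33. The transgene is nhr-25 with a tag of TY1, EGFP and FLAG (listed also as GFP::3xFlag) together with unc119, put into an unc-119(ed3) strain by bombardment, with 0 outcrosses. The 6 samples are 3 ChIP replicates with antibodies against GFP and 3 inputs, all from worms grown on HB101 at 20 °C and fixed with 2% formaldehyde. The peaks therefore belong to the tagged protein in whole larvae, and the cells that contribute to a peak are not resolved. The labels name no separate cultures for the replicates, so the spread between them may be technical.

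NHR-25 belongs to the NR5 nuclear receptors, with FTZ-F1 of Drosophila and SF-1 of mammals. Receptors of this family can bind DNA as monomers, and NHR-25 is known for its part in molting, in the development of the epidermis and its seam cells, and in the vulva. Worm autosomes have a central domain with little recombination, where many conserved and essential genes lie, flanked by arms that recombine more and are richer in repeats. The bounds of the centre used here follow that division. Chromosome V is also known for its large families of chemoreceptor and nuclear receptor genes. No gene is named for a site, since the only gene table at hand follows assembly WBcel235 and the peaks follow WS220.

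The combined list ends at a low false discovery rate, and each replicate list runs on far below it. The 3 replicate lists hold 30000, 29241 and 30000 peaks, down to values that stand for false discovery rates of 0.843, 0.990 and 0.888. The authors' value has a ceiling that many peaks share, so the authors' peak number, with 1 for the first peak, is the measure of strength in what follows. In every list the peaks at the ceiling come first, and a low number is read here as a strong peak. The order among peaks that share the ceiling was taken as the authors gave it, and what it rests on was not tested. No read counts were given with the peaks, so the depth behind them is unknown, and no value below carries a counting error from reads. Leaving out single replicates moved none of the densities or density ratios given below by more than 1.5 times.

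The strongest sites in the centre of V were found at nearly the same place in every replicate. The first member lies from 10897181 to 10897536, is number 22 of the combined list, and was number 19, 45 and 21 in replicates 1, 2 and 3. The next lies from 13081089 to 13081807 and is number 23, with numbers 27, 18 and 27 in the replicates. The third member, from 9546787 to 9547154, is number 26 and was number 37, 14 and 36. These members differed by less than 3-fold in number between replicates, and replicate 2 gave the highest number for the first and the lowest for the other two.

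The member from 13371280 to 13371771 is number 36, with 22, 50 and 34 in replicates 1, 2 and 3. A close neighbour, from 13380131 to 13380590, is number 67, with 71, 68 and 64, and its midpoint is 8835 bp away. By the ratio of its highest to its lowest number this neighbour was the most alike between replicates among the first 25 members. Further left, the member from 9344076 to 9344502 is number 45 with 41, 64 and 37, the one from 9789839 to 9790201 is number 53 with 69, 27 and 63, and the one from 9095593 to 9095999 is number 78 with 112, 124 and 57. In the right part of the centre, the site from 14685566 to 14685949 is number 43, with 38, 55 and 46. The site from 6224197 to 6224980 is number 57, with 26, 72 and 58. At 784 bp this is the widest member, and the combined list gives its interval for more than 1 peak number.

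The next members stood close together at several places. The pair from 11799129 to 11799660 and from 11802393 to 11802822 has midpoints 3213 bp apart. Its first site is number 156, with 119, 134 and 371 in replicates 1, 2 and 3, and its second is number 121, with 151, 216 and 75. Replicate 3 thus gave the weakest place of the replicates to the first site and the strongest to the second. The pair from 11530929 to 11531583 and from 11532110 to 11532647 is closer, 1123 bp by midpoints. Its left site is number 130 with 152, 114 and 222, and its right site is number 247 with 121, 341 and 412. A pair at the left end joins the site number 57 to the one from 6227446 to 6228047, number 225, which was number 778, 239 and 78 in the replicates. That is the widest disagreement among the first 25 members, and 24 of these were among the first 500 peaks of every replicate. In all, 8 of the first 25 members had another of them within 10 kb, in 4 pairs. This count was made after the positions had been seen.

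The remaining members of the first 25 had no other of the 25 within 10 kb. Those from 10965513 to 10965824, from 10717119 to 10717700 and from 10466540 to 10466932 are numbers 107, 112 and 186. Their numbers in replicates 1, 2 and 3 were 72, 221 and 126 for the first, 96, 121 and 134 for the second, and 164, 279 and 220 for the third. The site from 15660993 to 15661464, number 157 with 91, 136 and 354, is the rightmost of the 25. The leftmost lies from 6000289 to 6000734, number 240 with 333, 159 and 277. Of the others, those from 9730960 to 9731425, from 12343569 to 12343859 and from 11764409 to 11764721 are numbers 213, 220 and 226. The replicates gave 196, 285 and 219 to the first, 179, 390 and 293 to the second and 201, 338 and 244 to the third, each time with the lowest number in replicate 1 and the highest in replicate 2. The last, from 14660507 to 14660956 and from 10536859 to 10537169, are numbers 233 and 245, with 284, 362 and 185 for the first and 258, 412 and 184 for the second. The median ratio between the highest and the lowest replicate number was 2.18 over the 25, and their midpoints in the replicates were at most 101 bp from those in the combined list.

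**Figure D1:**
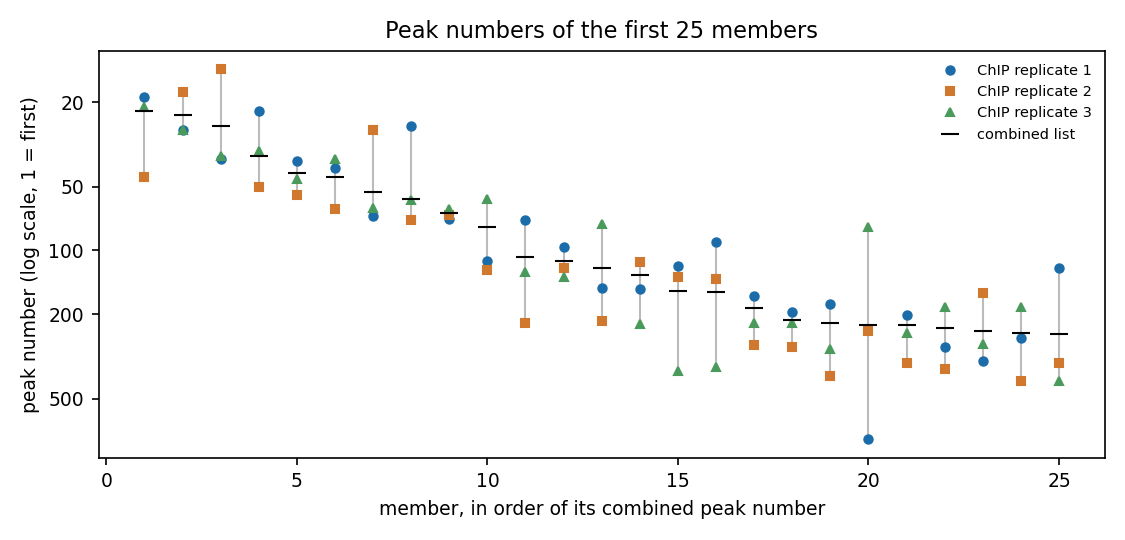
Peak numbers of the first 25 members in the 3 ChIP replicates (coloured symbols) and in the combined list (black bars), on a log axis with low numbers at the top. Grey lines join the lowest and the highest replicate, and the widest line belongs to the 20th member by combined number, from 78 in replicate 3 to 778 in replicate 1.

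Some strong members were placed far apart by the replicates. Among the members of the first 1000 that come after the first 25, the widest spread belongs to the site from 13259497 to 13259827, number 802, which was number 793 and 323 in replicates 1 and 2 and number 5121 in replicate 3. Next came the site from 12637236 to 12637546, number 321, with 952, 326 and 156. The order of the replicates thus differed, with replicate 3 the weakest at the first of these sites and the strongest at the second. It was followed by the site from 6247345 to 6247707, number 756 with 1848, 859 and 360, and the site from 12300156 to 12300557, number 839 with 523, 661 and 2502. The fifth, from 11543535 to 11543864, number 671, was number 315, 1440 and 745. Over the 112 members among the first 1000 the median ratio was 2.18, the same as over the first 25, so these sites stand at the end of a range.

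Peaks were denser in the centre of V than on its arms in every replicate. The top lists held 66.0, 67.6 and 66.1 peaks per Mb in the centre in replicates 1, 2 and 3, and 28.1, 26.9 and 27.4 on the arms. The mean was 66.6 ± 0.896 peaks per Mb in the centre and 27.5 ± 0.638 on the arms (SD, n = 3 each), a ratio of 2.43 ± 0.0854 (SD, n = 3). The difference of 39.1 ± 1.47 peaks per Mb was many times the spread between replicates. An exact permutation test over the 3 replicates, which flips the signs of the within-replicate differences, gave p = 0.25, the smallest that 3 pairs allow. That holds for every comparison below in which all 3 replicates agree in direction: 49 of 64 such comparisons, none of which could pass a threshold of 0.05 (smallest Benjamini-Hochberg adjusted p = 0.327, exact permutation tests, two-sided).

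The arms were not alike. The left arm held 33.2 ± 0.933 peaks per Mb and the right arm 19.7 ± 1.49 (SD, n = 3 each), so the centre was 2.01 ± 0.0817 times as dense as the left arm and 3.38 ± 0.259 times as dense as the right one. For the first 1000 peaks of each replicate the contrast with the arms was larger, 10.4 ± 0.248 peaks per Mb in the centre and 3.37 ± 0.281 on the arms (SD, n = 3 each), a ratio of 3.11 ± 0.316.

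The higher density of the centre did not extend to the weaker peaks. Below the top lists, beyond peak 6029, the centre held 182, 196 and 178 peaks per Mb in replicates 1, 2 and 3, and the arms 196, 171 and 195. The centre was thus the denser one in replicate 2 and the sparser one in replicates 1 and 3, and the mean ratio was 0.995 ± 0.132 (SD, n = 3; exact permutation p = 1). In each replicate the ratio was higher in the top list than below it, by 1.43 ± 0.0693 (SD, n = 3; exact permutation p = 0.25). This contrast was added after the values had been seen and is not among the 64 comparisons. With all deposited peaks the ratio was 1.18 ± 0.134 (SD, n = 3). Put the other way, 26.5 ± 0.737% of the deposited replicate peaks in the centre were in the top list, and 12.8 ± 0.689% of those on the arms (SD, n = 3 each; higher in the centre in 3 of 3 replicates, exact permutation p = 0.25). How far peaks below the top lists are bound sites was not tested.

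Among the centres of the 6 chromosomes that of V was one of the sparser ones. In the top lists V, with 66.6 peaks per Mb, had 0.808, 0.747 and 0.750 times the density of the centres of I, II and III, which held 82.4 ± 0.999, 89.2 ± 3.00 and 88.7 ± 1.82 peaks per Mb (SD, n = 3 each), and it was lower in each replicate. V was 1.05 ± 0.0226 times as dense as the centre of IV (SD, n = 3), which held 63.4 ± 0.508 peaks per Mb, and higher in 3 of 3 replicates (difference 3.13 ± 1.40 peaks per Mb; exact permutation p = 0.25). It was 0.972 ± 0.0171 times as dense as the centre of X (SD, n = 3), which held 68.5 ± 2.08, and lower in 3 of 3 replicates (difference -1.92 ± 1.23 peaks per Mb; exact permutation p = 0.25). In the combined list this last ratio was 1.01. Among each replicate's first 1000 peaks it was 0.831 ± 0.0190 (SD, n = 3), with V lower in 3 of 3 replicates. For IV the direction turned with all deposited peaks, where V had 0.892 times the density of IV.

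**Figure D2:**
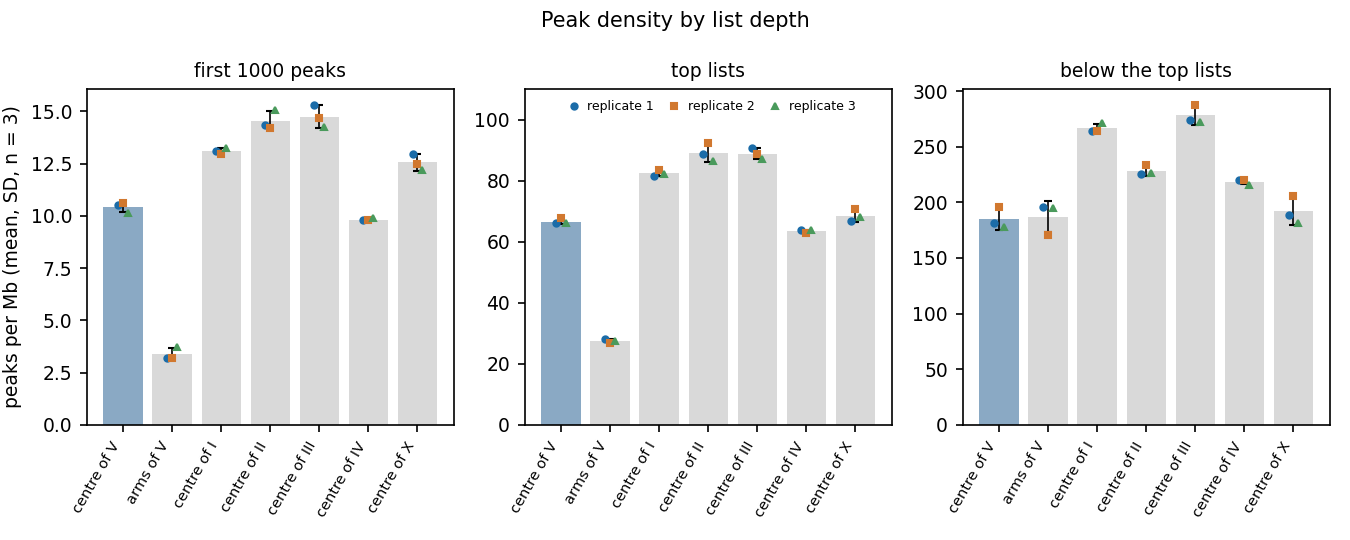
Peaks per Mb in the centre of V (blue), on its arms and in the centres of the other chromosomes (grey), for the first 1000 peaks, the top lists and the peaks below the top lists. Bars are means of 3 ChIP replicates with their SD and symbols are replicates. In the centre of V the means were 10.4, 66.6 and 185, and on the arms of V 3.37, 27.5 and 187.

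Along the centre the sites were spread unevenly. In 1-Mb bins counted from the left bound, the 10 full bins held 70.0 ± 23.4 members (SD over bins), from 35 to 113. The fullest ran from 10.9 to 11.9 Mb and had 113 members, with 108, 106 and 110 top-list peaks in replicates 1, 2 and 3. Of its members, 21 (18.6%) were among the first 1000 of the combined list, the highest count of any bin. The bin from 12.9 to 13.9 Mb followed with 90 members, 17 of them among the first 1000, and then the leftmost bin with 85 and the bin from 8.9 to 9.9 Mb with 84, with 11 and 9 among the first 1000. As a share, members among the first 1000 ran from 8.20% (7.9 to 8.9 Mb) to 22.0% (6.9 to 7.9 Mb) in the full bins. Over all members the share was 15.8%. The SD between replicates within a full bin was between 2.00 and 6.35 peaks, so the differences between the fullest and the sparsest bins were far larger than the spread between replicates.

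The centre thinned out toward its right bound. From 13.9 to 14.9 Mb there were 63 members, from 14.9 to 15.9 Mb 35, and in the last 0.650 Mb there were 9, or 13.8 per Mb. The top lists showed the same order there, with means of 57.7 ± 3.51, 42.7 ± 2.89 and 9.0 ± 3.0 peaks (SD, n = 3 each). The first Mb of the right arm held 10 combined peaks, and 11.7 ± 2.31 in the top lists. At the left bound the first Mb of the centre held 85 members, with 80.3 ± 6.35 in the top lists, and the last Mb of the left arm 50 peaks, with 53.0 ± 4.0 (SD, n = 3 each). Further in, a sparse bin ran from 6.9 to 7.9 Mb, with 41 members, 9 of them among the first 1000.

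Between full bins the number of members varied 3.23-fold, and that of all deposited replicate peaks 1.99-fold, with means of 3 replicates from 171 to 341. The right end was low in deposited peaks too, with 171 ± 25 from 14.9 to 15.9 Mb and 70.0 ± 5.20 in the last 0.650 Mb (SD, n = 3 each).

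**Figure D3:**
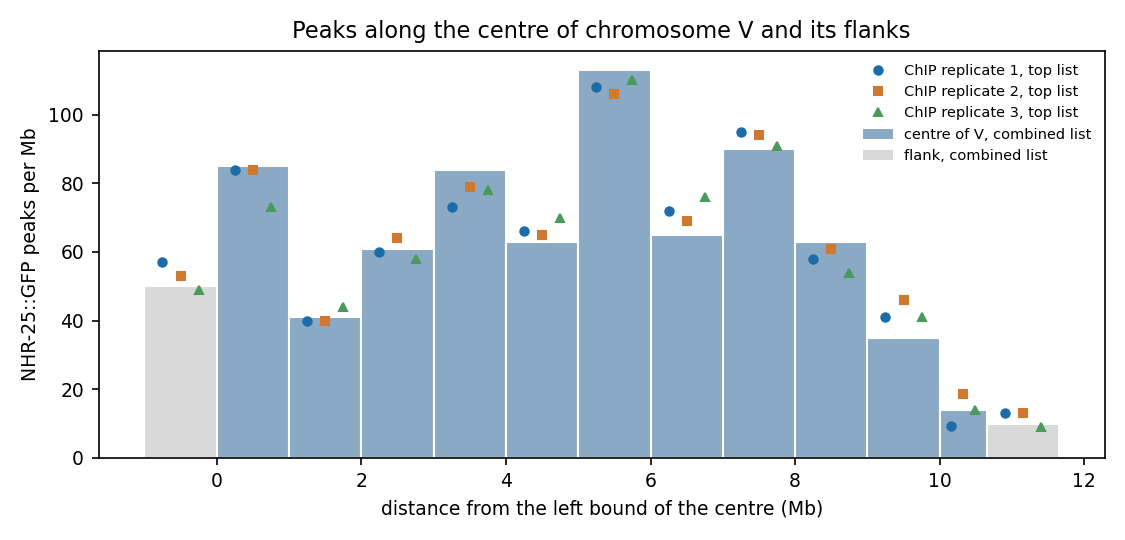
Peaks per Mb in 1-Mb bins along the centre of V (blue bars, the last bin 0.650 Mb long) and in the first Mb on either side (grey bars), by distance from the left bound. Symbols are the top lists of the 3 ChIP replicates. The fullest bin reached 113, and the last 0.650 Mb had 13.8 per Mb.

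At a finer scale dense stretches lay beside empty ones. Of 106 bins of 100 kb, 7 held at least 15 members and together 133 of the 709 members (18.8%), while 8 held 0, and the median was 5.5. Such bins in other parts are not given here, so the unevenness is not read as particular to the centre of V. The fullest started at 6.2 Mb and had 25 members, with 26, 26 and 24 top-list peaks in replicates 1, 2 and 3. The bin starting at 8.6 Mb had 22 members, with 21, 24 and 18 top-list peaks, and the gap that follows it, from 8672124 to 8922481, was 250 kb long. Replicates 1, 2 and 3 had 0, 1 and 0 top-list peaks in this gap and 14, 24 and 15 deposited peaks. Another abrupt change lay at 11.5 Mb. The gap from 11314345 to 11502589, 188 kb long, held 2, 1 and 2 top-list peaks and 24, 30 and 21 deposited ones, and the 100 kb from 11.5 Mb on held 22 members, with 23, 19 and 21 top-list peaks.

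The longest gap between member regions ran from 15189871 to 15511664, 322 kb, in the thinning right part. It was not empty in the replicates, which had 2, 4 and 5 top-list peaks and 28, 37 and 24 deposited peaks there. The median gap between neighbouring member regions was 3.61 kb, 16 of 660 gaps exceeded 100 kb, and 5 of those 16 started in the last 1.65 Mb. Gaps in other parts are not given here.

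Member regions lay close together. Joining overlapping peaks gave 661 regions, of which 47 held more than 1 peak and 0 more than 3. The nearest other region was a median of 1998 bp away, and 334 regions (50.5%, exact Clopper-Pearson 95% interval 46.6 to 54.4%) had one within 2000 bp. On the arms of V the median was 4513 bp and 69 of 273 regions (25.3%, 20.2 to 30.9%) had such a neighbour. In the top lists the share was 47.1 ± 2.12% in the centre and 29.9 ± 4.56% on the arms (SD, n = 3 each), higher in the centre in 3 of 3 replicates (exact permutation p = 0.25). A denser stretch brings neighbours closer, and the part of density in this difference was not tested. Beside the 47.1% of V, the centres of IV and X, those closest to V in density, had shares of 42.8 ± 2.45 and 43.4 ± 1.96% in the top lists (SD, n = 3 each). The centre of V exceeded IV by 4.29 ± 4.57 percentage points, in 2 of 3 replicates (exact permutation p = 0.5), and X by 3.74 ± 2.37 points, in 3 of 3 (exact permutation p = 0.25). It also exceeded I by 3.78 ± 3.36 and III by 4.36 ± 2.42 points, each in 3 of 3 replicates (exact permutation p = 0.25). The centre of II had 47.8 ± 2.63% (SD, n = 3), and V differed from it by -0.68 ± 4.72 points, with V the higher in 2 of 3 replicates (exact permutation p = 1).

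**Figure D4:**
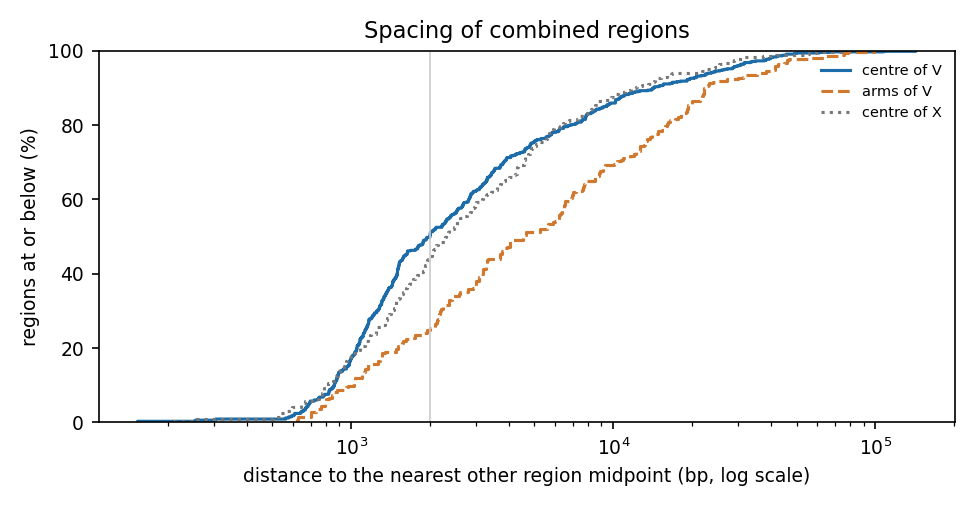
Share of combined regions whose nearest other region lies at or below a given distance, in the centre of V (661 regions), on the arms of V (273) and in the centre of X (393), on a log axis. The grey line marks 2000 bp, where the shares were 50.5, 25.3 and 44.8%.

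Neighbouring regions formed runs, here strings of regions whose successive midpoints are at most 2000 bp apart. There were 119 runs of at least 2 regions with 334 regions in all, and 19 runs of at least 4 with 102. Runs in other parts are not given here, so these counts are not read as particular to the centre of V. The longest run had 12 regions from 6221033 to 6234262, a stretch of 13.2 kb that holds the sites number 57 and 225 described above. The next had 9 regions from 11794401 to 11803824 and includes the pair numbered 121 and 156. Runs of 6 lay from 11530929 to 11537305, from 12299409 to 12304493 and from 13652221 to 13658988, with best numbers of 130, 839 and 325. Of the members among the first 1000, 65 of 112 (58.0%) were in a region with a neighbour within 2000 bp, and 301 of 597 of the others (50.4%). Among those others the share was 47.7% of the 241 numbered above 1000 and up to 3000, and 52.2% of the 356 above 3000. It thus did not run one way with the peak number.

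The 3 densest windows of 30 kb coincide in part with these runs. The first, from 6221033 to 6247995, had 17 regions made of 19 peaks, of which 14 were at the ceiling of the authors' value and 6 among the first 1000. The top lists had 15, 17 and 15 regions in it. The second, from 11521485 to 11549237, had 15 regions with 6 peaks among the first 1000, and 13, 13 and 15 regions in the top lists. The third, from 11794401 to 11824402, had 14 regions with 4 peaks among the first 1000, and 11, 13 and 14 regions in the top lists. Replicate 2 had the most regions in the first window and replicate 3 in both others, by at most 3.

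By strength the members resembled the combined list as a whole. Their median number was 3035, with quartiles of 1549 and 4551, against 3121 on the arms and 3015 over the whole list. At the ceiling of the authors' value were 531 members (74.9%, exact Clopper-Pearson 95% interval 71.5 to 78.0%), beside 75.4% of all combined peaks and 78.0% of those on the arms. The first 500 peaks included 53 members (7.48%, 5.65 to 9.66%), beside 8.29% of all combined peaks by construction. The first 1000 included 112 (15.8%, 13.2 to 18.7%), beside 16.6% of all combined peaks and 12.4% (8.80 to 16.8%) of those on the arms. These shares lie near the background of the whole list, and each interval covers counting error only.

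Members were found again in the replicates about as often as other combined peaks. Replicates 1, 2 and 3 had 79.5, 79.0 and 78.4% of the members in their top lists (mean 79.0 ± 0.564%, SD, n = 3) and 81.6, 74.8 and 77.3% of the peaks on the arms (77.9 ± 3.41%). The centre was higher in 2 of 3 replicates (difference 1.09 ± 3.09 percentage points, exact permutation p = 0.75). All 3 top lists contained 401 members (56.6%, exact Clopper-Pearson 95% interval 52.8 to 60.2%), beside 56.9% of all combined peaks and 54.6% of those on the arms. Of the other members, 185 were in 2 top lists, 107 in 1 and 16 in 0. Replicate 1 alone lacked 55 of the 185, replicate 2 alone 68 and replicate 3 alone 62. Among the first 1000 peaks in every replicate were 72 members (10.2%, 8.03 to 12.6%), beside 11.9% of all combined peaks. The combined list comes from the same ChIP samples, so these shares are a description.

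How often a member was in every top list followed its number. All 112 members numbered up to 1000 were, as were 112 of 115 numbered 1001 to 2000. The share was 77.0% of 126 members at 2001 to 3000, 46.5% of 101 at 3001 to 4000, 15.04% of 133 at 4001 to 5000 and 10.8% of 120 at 5001 to 6000. On the arms the shares at 3001 to 4000 and at 5001 to 6000 were lower, 32.7% of 52 and 4.76% of 42. At 1001 to 2000 and at 2001 to 3000 the arms were higher, with 44 of 44 and 83.1% of 59. At 4001 to 5000 the arms had 14.3% of 49. In each of these groups the intervals of centre and arms overlap. Over all combined peaks the shares in the same groups, from the first to the last, were 100, 98, 79.4, 41.1, 15.3 and 9.0%. The centre of V was above these at 3001 to 4000 and at 5001 to 6000. It equalled them up to 1000 and was below them in the other groups.

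**Figure D5:**
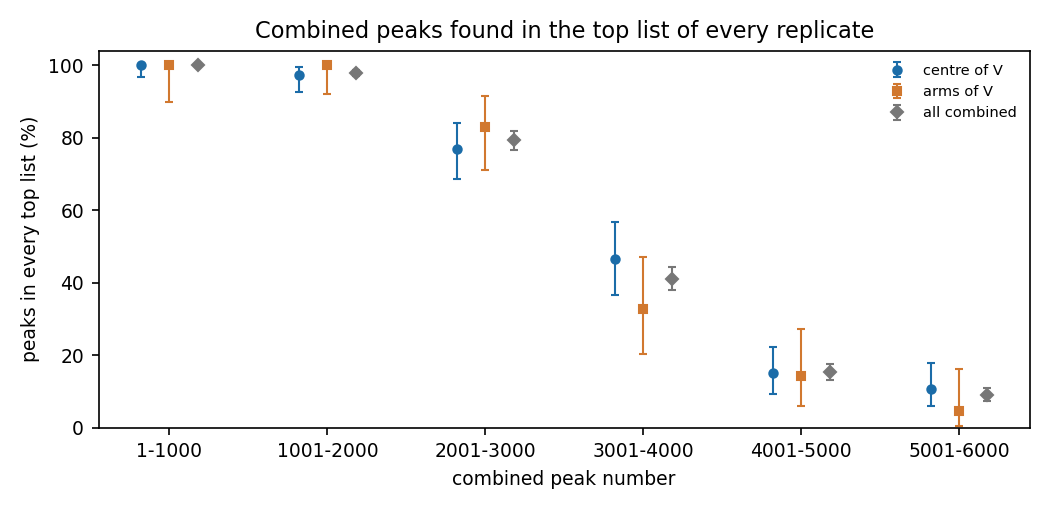
Percent of combined peaks that overlap a top-list peak in every replicate, by combined peak number, for the centre of V, the arms of V and all combined peaks. Bars are exact 95% intervals, which cover counting error only. In the centre of V the share was 100% for numbers up to 1000 and 10.8% at 5001 to 6000.

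With all deposited replicate peaks in place of the top lists, 669 members (94.4%) were found in every replicate and each of the 709 in at least 1. The share found in every replicate was 96.0% over all combined peaks and 95.4% on the arms. Every combined peak was likewise found in at least 1 replicate. Each of the 40 other members lacked a peak in 1 replicate, 8 of them in replicate 1, 14 in replicate 2 and 18 in replicate 3. The strongest of them lies from 11000563 to 11001002, number 1703, and was number 1412 in replicate 1 and 9267 in replicate 2, with no peak in replicate 3. The site from 13410824 to 13410987, number 1763, was number 1172 and 1421 in replicates 1 and 3 and had none in replicate 2. The third, from 9654087 to 9654526, number 2771, was number 1860 and 2577 in replicates 2 and 3 and had none in replicate 1. So each replicate lacked 1 of these 3 sites.

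Across members the order of strength was shared between replicates in part. Spearman's rho of the peak number was 0.658 between replicates 1 and 2 over 687 members, 0.690 between 1 and 3 over 683 and 0.649 between 2 and 3 over 677. The mean was 0.666 in the centre, 0.595 on the arms and 0.677 over all combined peaks. These are descriptions across peaks of the same 3 libraries, and 96, 88 and 95 members shared their best overlapping peak in replicates 1, 2 and 3 with another member. Midpoints agreed closely, with a median distance from the combined midpoint of 24.5, 30 and 27 bp in replicates 1, 2 and 3, and of 22, 26 and 25 bp on the arms.

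Most members had the same width. Exactly 440 bp was the width of 469 members (66.1%), beside 66.2% of all combined peaks and 67.4% of those on the arms. The range among members ran from 110 to 784 bp. No member was 1000 bp or wider, while the arms of V had a peak of 1764 bp. The centres of III, IV and X had no such peak either, with widest peaks of 949, 733 and 911 bp. The members among the first 1000 had a median width of 293 bp and none was 440 bp wide, whereas 78.6% of the other members were. Median width was 245 bp for the members numbered 1001 to 2000 and 440 bp in each later group of 1000 numbers, so it did not run one way with strength. The pattern was not particular to the centre of V. Up to 1000, at 1001 to 2000 and at 2001 to 3000 the medians were 300.5, 228 and 440 bp over all combined peaks. On the arms they were 270, 215 and 440 bp. The interval of 10 members was that of another member, which leaves 704 distinct intervals. Over the whole combined list this held for 126 of 6029 peaks.

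The bounds of the centre cut through stretches with few peaks. Just inside the left bound lay the members from 5939465 to 5939904, number 5061, and from 5949648 to 5950087, number 5404. Just outside it lay the peaks from 5847961 to 5848400, number 3744, and from 5845881 to 5846320, number 3179. The last members before the right bound lie from 16401603 to 16401828, number 1363, and from 16369917 to 16370356, number 2890. Beyond it come the peaks from 16776737 to 16777176, number 2145, and from 16777533 to 16777972, number 3432. The nearest of these 8 to a bound was 39.7 kb away.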

How the data were processed

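The members, lists and tests were chosen with earlier results of these data known. Peaks came from the 3 ChIP lists and 1 combined list as the authors deposited them; files of the inputs were not used here. The coordinates follow WormBase WS220 per the file headers, and the rows name the SPP caller and IDR (irreproducible discovery rate). Aligner, filters, IDR threshold and merging: not given in the sources used here. Each deposited peak has a −log10 false discovery rate estimate (column 6), whose unit was read from the values: in the replicate lists the ceiling, shared by 4248, 2662 and 4126 peaks, implies those same counts of peaks, and in the combined list it implies 4559 where 4546 are at it.

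From these lists, peaks were matched by an overlap of at least 1 bp, and a peak takes the lowest replicate number that overlaps it. Top lists hold 6029 peaks. The span of the centre was 10.7 Mb and that of the arms 10.3 Mb, to the last base any deposited peak reached. Centres of other chromosomes had bounds rounded to 100 kb, from general knowledge of the recombination map: 3.9 to 11 Mb on I, 4.9 to 12 on II, 3.7 to 10.3 on III, 3.9 to 13 on IV and 6.1 to 12.5 on X. Parts were compared by exact two-sided sign-flip tests over 3 replicates (scipy 1.17.1, Python 3.11.15), and no test was run over peaks. Functions were tested on simulated lists. Named sites are the first 25 members, of the rest the 5 widest spreads among the first 1000, the 3 densest windows, the 3 longest gaps, the 2 peaks on each side of a bound, the first 3 members missing from a replicate, and sites found in every replicate's first 1000 but not combined; other runs and bins were named after their values were seen. No genome sequence or annotation of WS220 was used, so no sequence is shown.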

Additional observations from a re-analysis of the deposited data

How the results depend on the processing

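Over 14 results and 91 alternatives, 39 values moved by less than the spread between replicates, the counting interval or 1.5-fold, 48 moved by more, and 4 turned round. Some of the 48 had to move, since a shorter or longer list, another distance or fewer replicates changes the quantity itself. The tally is therefore not a measure of how robust the results are.

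Density in the centre of V (66.6 peaks per Mb) was 67.6 with bounds 500 kb further in, 64.4 with bounds 500 kb further out, 69.6 in the central 50% of the chromosome, 62.1 in joined regions, 49.9 at the ceiling, 33.2 in the first 3014 peaks and 252 with all deposited peaks; without single replicates it was 66.1 to 66.9. Its ratio to the arms (2.43) was 2.25, 2.77, 2.34, 2.33 and 1.18 with bounds further in, the central 50%, joined regions, ceiling peaks and all deposited peaks, and 2.38 to 2.47 without single replicates. In peaks below the top lists, an alternative added after seeing the data, it was 0.928, 1.15 and 0.910 in replicates 1, 2 and 3; the cause was not tested.

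The share of members in every replicate (56.6%) was 34.8% at a reciprocal overlap of 50%, 45.1% with midpoints within 100 bp, 32.9% with replicate lists of 3014 peaks, 94.4% with all deposited peaks, 35.8% with ceiling peaks, 91.0% for members in the first 3014, 71.9% for those at the ceiling, and 64.3 to 66.1% without single replicates. The share among the first 1000 stayed within its interval. Mean rho (0.666) was 0.389 with the authors' value, 0.712 for members in every top list, and 0.649 to 0.690 without single replicates.

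The share of regions with a near neighbour (50.5% in the combined list) was 17.2 and 75.6% at 1000 and 5000 bp, 30.2% in the first 3014 peaks and 56.1% unjoined. As a mean over top lists it was 47.1% with all 3 replicates, 46.4 to 48.3% without single replicates, and 31.2% in top lists of 3014. Its ratio to the arms (2.00 in the combined list) was 1.48 at 5000 bp and 2.43 in the first 3014 peaks. As a mean over top lists this ratio was 1.61 with all 3 replicates and 1.44 to 1.74 without single replicates. The fullest bin had 97 members when bins were shifted by 500 kb, and the densest windows of 20 and 50 kb had 15 and 19 regions.

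The comparisons with other centres had alternatives chosen after seeing the data. In the central 50% of every chromosome, V over I, II, III, IV and X was 0.872, 0.841, 0.80, 1.09 and 0.935. With all deposited peaks it was 0.721, 0.792, 0.685, 0.892 and 0.966 for I, II, III, IV and X, and in the combined list 0.793 for I, 0.775 for II and 1.01 for X. So the direction against IV turned with all deposited peaks and that against X in the combined list, and the cause was not tested. Without single replicates the ratios were 0.807 to 0.809, 0.738 to 0.755, 0.744 to 0.761, 1.04 to 1.06 and 0.964 to 0.981 for I, II, III, IV and X. The exact tests pair the parts within a replicate. For ChIP against input, no paired analysis was possible because only ChIP peak lists were at hand. The ceiling and the unknown depth limit any ranking.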

Other observations

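Not every strong replicate peak in the centre of V was in the combined list. Of the 703, 720 and 704 top-list peaks of replicates 1, 2 and 3 there, 140, 150 and 145 overlapped no combined peak. Among each replicate's first 1000 peaks this held for 3 of 112, 1 of 113 and 3 of 108. The same shares over the whole replicate lists are not given here, so these counts are not read as particular to the centre of V. One site lacking a combined peak was among the first 1000 of all 3 replicates. It lies from 8500297 to 8500726, was number 964, 901 and 891 in replicates 1, 2 and 3, and its midpoint is 33.5 kb from the nearest combined one.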
